A study of Mus musculus with 4 samples.

Results

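Intermediate filament genes were followed in mouse pancreatic islet cells given MOTS-c, a peptide encoded in the mitochondrial genome, or a scrambled control peptide. The 10 genes were the keratins Krt7, Krt8, Krt18, Krt19 and Krt73 and the non-keratin filaments Vim, Des, Nes, Prph and Ina, out of 22911 genes that had a probe with a symbol. The genes were chosen by name with earlier MOTS-c against scrambled results of these arrays in view, among them a fall of Krt73 and the study's own lists of changed probes, which hold Krt8 and Krt18. Their differences between treatments are therefore given as a description, without a test. The rule found 11 probes, 1 per gene and a pair for Prph. Of these, 9 probes of 8 genes were well above background on all 4 arrays and were normalized, and the probes of Krt19 and Des were well above background on 0 of 4 arrays.

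Islets of 4 C57BL/6 littermates, 60 weeks old and labelled as male, were dispersed into single cells and kept for 24 h with either peptide at 10 μM. The scrambled group held 2 arrays (replicates 1 and 2) and the MOTS-c group 2 arrays (replicates 2 and 3), all one-color Agilent arrays, and no untreated or genetically altered cells were included. Gene spots well above background made up 61.6% to 65.0% of an array. MOTS-c replicate 3 lay farthest from the others, at Euclidean distances of 72.8 to 86.8 over all tested probes, against 60.7 to 65.7 among the remaining arrays, so values without it are given for the filament genes and for some of the other genes. Beta cell transcripts were present on every array, with a log2 signal of 18.13 ± 0.00 (SD, n = 2) for Ins1 with the scrambled peptide and 18.09 ± 0.01 with MOTS-c. The arrays went against the labelled sex, since 7 Y-linked probes were well above background on 0 of the 4 arrays, while Xist was on all 4. The labels give 2 samples per group from the 4 littermates and do not say which animal gave which array.

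Intermediate filaments are rope-like polymers that give cells mechanical strength. Keratins assemble as pairs of a type I and a type II chain, and Krt8 with Krt18 is the pair of simple epithelia, including the endocrine and exocrine pancreas, while Krt7 and Krt19 are typical of ducts. Vimentin and desmin belong to type III and mark mesenchymal and muscle cells, peripherin is a type III filament of neurons, and alpha-internexin and nestin are type IV filaments of neurons and of neural progenitors. Islet endocrine cells share part of the neuronal expression program. Krt73 is a type II keratin of the inner root sheath of hair follicles.

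The promoters of Krt8, Krt18 and Krt73 are shown because in these genes the highest MOTS-c array lay below the lowest scrambled array. Each run holds 250 bases before and 50 bases after the annotated start, 5′ to 3′ on the gene's strand, from RefSeq (build GRCm38.p6). Capitals mark TATAAA, read on both strands.
Krt8 (chr15:102004293-102004592, minus strand): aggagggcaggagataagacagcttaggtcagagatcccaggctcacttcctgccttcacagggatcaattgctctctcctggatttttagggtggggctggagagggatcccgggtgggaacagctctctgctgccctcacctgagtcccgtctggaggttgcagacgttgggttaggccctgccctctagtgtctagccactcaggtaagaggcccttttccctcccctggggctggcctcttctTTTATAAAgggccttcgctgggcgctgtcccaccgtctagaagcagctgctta
Krt18 (chr15:102027966-102028265, plus strand): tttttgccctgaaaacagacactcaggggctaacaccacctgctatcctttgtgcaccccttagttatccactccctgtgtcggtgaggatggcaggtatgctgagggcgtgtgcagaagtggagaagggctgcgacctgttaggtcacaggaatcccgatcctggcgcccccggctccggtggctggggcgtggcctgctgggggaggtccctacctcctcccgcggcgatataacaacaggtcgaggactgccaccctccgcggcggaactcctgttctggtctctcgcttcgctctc
Krt73 (chr15:101802311-101802610, minus strand): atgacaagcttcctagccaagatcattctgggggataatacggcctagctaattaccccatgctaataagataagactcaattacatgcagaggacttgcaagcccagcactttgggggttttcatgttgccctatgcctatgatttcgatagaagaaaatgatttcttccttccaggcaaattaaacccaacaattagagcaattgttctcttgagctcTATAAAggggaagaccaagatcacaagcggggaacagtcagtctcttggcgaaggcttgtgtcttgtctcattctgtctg

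TATAAA lay 30 bases upstream of the start of Krt73, matched as an overlapping pair at 3 bases and 1 base upstream of the start of Krt8, and was not found in the window of Krt18. This motif occurred in 13.6% of the 32851 promoters in the table. GGGCGG (35.7% of all promoters), TGANTCA, the AP-1 element (7.81%), and CACGTG, the E-box (7.15%), had 0 matches in these 3 windows. The windows also differed in base composition. Krt73 had a GC content of 43.7% with 4 CpG, Krt8 58.0% with 6 CpG and Krt18 61.3% with 17 CpG, where the median over all promoters was 52.7% with 7 CpG. Among the other members, Krt7 had 4 matches to GGGCGG, Vim and Prph had TATAAA at 32 and 31 bases upstream, and no promoter entry was matched for Krt19.

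Over the members as a whole, all 9 normalized probes had a difference below 0 between MOTS-c and scrambled, with a median log2 difference of -0.52, while 47.1% of all 35087 tested probes were below 0 and their median was 0.01. The groups did not overlap, with MOTS-c lower, for 3 of the 9 probes, and this pattern was met by 18.6% of all tested probes. With MOTS-c higher it was met by 0 of the 9 and by 19.4% of all. At least 1.5-fold lower were 2 of the 9, against 3.43% of all, and at least 1.5-fold higher 0 of the 9, against 1.81%. Because the genes were picked partly for their falls, nothing is read from these counts. In 6 of the 9 probes MOTS-c replicate 3 was the lowest array, as it was in 33.3% of all probes. No probe on the array reached an adjusted p of 0.05 in limma (0 of 35087, 0.0%), the smallest adjusted p being 0.474, while 2755 probes had an unadjusted p under 0.05, and 1 probe passed the methods' t-test once adjusted.

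**Figure D1:**
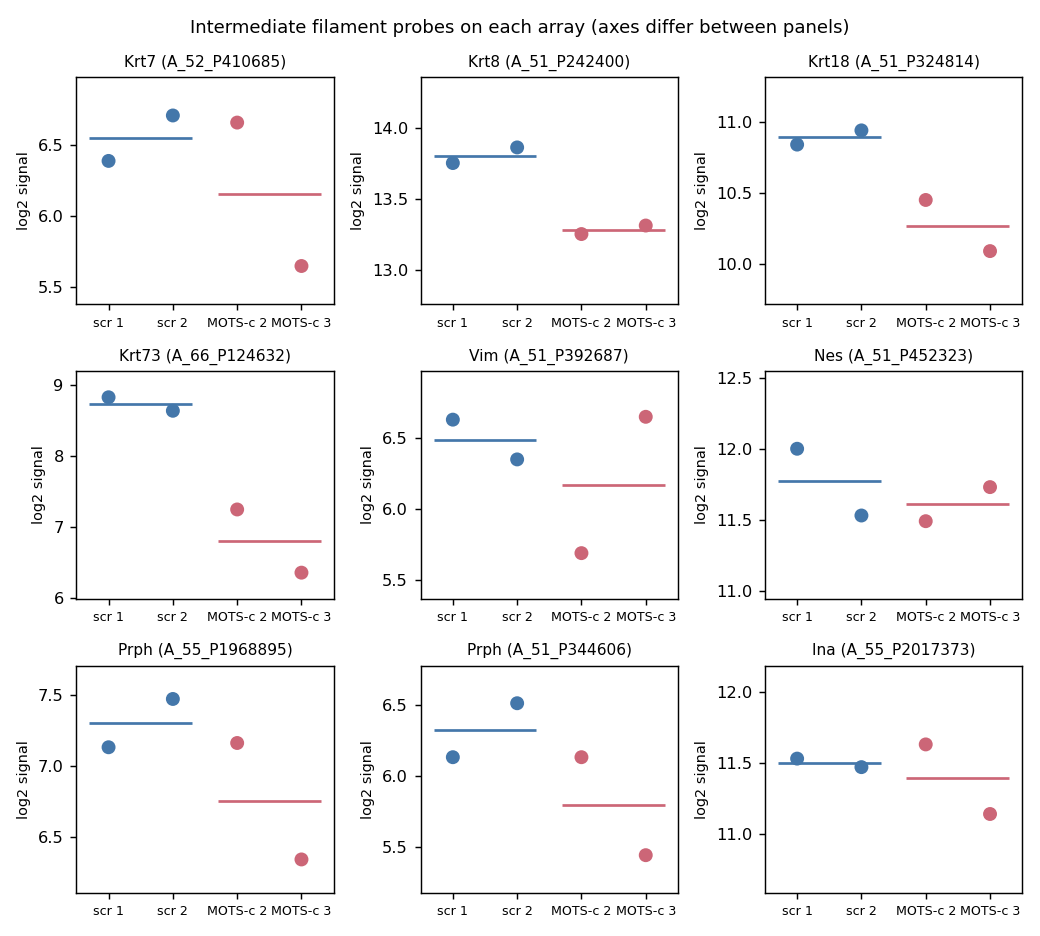
Normalized log2 signal of the 9 filament probes on each of the 4 arrays, scrambled (scr) in blue and MOTS-c in red, with lines at the group means and a separate y axis for each panel. In Krt8, Krt18 and Krt73 the red points all lie below the blue points, and in the other 6 panels the groups overlap.

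Krt8, the type II partner of the simple epithelial pair, had a log2 signal of 13.75 and 13.86 on the scrambled arrays and of 13.25 and 13.31 on the MOTS-c arrays (probe A_51_P242400). Both MOTS-c arrays were below both scrambled arrays, and the arrays of a group lay within 0.10 of each other. The log2 difference was -0.52 (standard error 0.12), so that the MOTS-c signal was 69.6% of the scrambled signal. A further probe, A_66_P128079, carries an mRNA accession that the gene table does not hold and that the study's own table assigns to Krt8. It gave 14.05 and 14.21 with the scrambled peptide and 13.45 and 13.50 with MOTS-c, a log2 difference of -0.65 (standard error 0.13), and it is not counted among the 9. The difference of Krt8 stayed between -0.58 and -0.47 when any array was left out, and was -0.56 without MOTS-c replicate 3.

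Krt18, the type I partner of Krt8, had a log2 signal of 10.84 and 10.94 on the scrambled arrays and of 10.45 and 10.09 on the MOTS-c arrays (probe A_51_P324814). The order of the groups was that of Krt8, but the MOTS-c arrays lay farther apart, with replicate 3 lowest. The log2 difference was -0.62 (standard error 0.17), or 65.1% of the scrambled signal. It was under 1.5-fold at -0.44 without MOTS-c replicate 3, at -0.57 without scrambled replicate 2 and at -0.52 with another background correction (normexp). Without MOTS-c replicate 2 it was -0.80. Krt8 and Krt18 are next to each other on chromosome 15, with no other coding gene between them. Their profiles over the 4 arrays, each centred on its mean, had a root mean square difference of 0.154, and among the 21813 probes with a symbol that were well above background on all arrays the probe of Krt8 ranked 891 in nearness to Krt18.

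Krt7, a type II keratin of ducts and other simple epithelia, had a log2 signal of 6.39 and 6.71 on the scrambled arrays and of 6.66 and 5.65 on the MOTS-c arrays (probe A_52_P410685). The MOTS-c arrays thus differed by 1.0 between themselves and one of them lay between the scrambled arrays, and the groups overlapped. The log2 difference of -0.39 (standard error 0.36) became 0.11 without MOTS-c replicate 3 and -0.89 without MOTS-c replicate 2. The probe was dim, at 2.48 to 4.11 times its local background.

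Krt19, the type I keratin used to mark pancreatic ducts, was not well above background on any array, at 1.03 and 1.25 times the local background with the scrambled peptide and 1.09 and 0.974 times with MOTS-c (probe A_51_P356642). No fold is given for it. Of 12 further duct markers, 8 passed the filter, and the probes of Sox9, Cftr, Slc4a4 and Prom1 were well above background on 0 arrays. The summed signal of the 8, mostly Clu and Tm4sf4, was 15100 and 20900 with the scrambled peptide and 18000 and 15500 with MOTS-c. In this sum the groups overlapped, unlike those of Krt8 and Krt18. The median log2 difference of these markers was -0.05, with Pkhd1, a gene of ciliated duct epithelium, at -0.90 (limma adjusted p = 0.548, 1 MOTS-c array not well above background), at -1.29 without MOTS-c replicate 3, at -0.54 without MOTS-c replicate 2 and at -0.16 with another background correction (normexp).

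Among 10 genes of epithelial junctions and epithelial identity 8 passed the filter, with a median log2 difference of -0.10. That median counts Rab25, described below. The strict filter on all 4 arrays, which leaves Rab25 out, gave a median of 0.0, so no fall of the list is read from it. Cldn7, a tight junction claudin, had a log2 signal of 8.94 and 9.32 with the scrambled peptide and of 8.60 and 8.36 with MOTS-c, a log2 difference of -0.65 (standard error 0.19, limma adjusted p = 0.544) that was under 1.5-fold at -0.54 without MOTS-c replicate 3 and at -0.46 without scrambled replicate 2. Cdh1, the adherens junction cadherin of epithelia, was at -0.52 and Epcam at 0.23. Rab25, a GTPase of epithelial recycling endosomes, was not well above background on either MOTS-c array. It passed the filter only through the scrambled arrays, where it was higher, so nothing is read from its fall. Its measured means were 4.08 with the scrambled peptide and 3.32 with MOTS-c. A probe without signal above background in a group gives only a bound, set by the dimmest probe above background on each array. That bound was 1.34-fold lower, while the log2 difference was -0.20 with normexp. In RNA from a mixture of cells, fewer epithelial cells and less keratin RNA in each cell cannot be told apart.

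Krt73, the inner root sheath keratin, had the widest separation of the 9 probes. Its log2 signal was 8.83 and 8.64 with the scrambled peptide and 7.25 and 6.36 with MOTS-c (probe A_66_P124632). Both MOTS-c arrays were far below both scrambled arrays, and they differed from each other by 0.89. The probe stood at 11.1 and 13.1 times its local background with the scrambled peptide and at 4.68 and 2.98 times with MOTS-c. The log2 difference was -1.93 (standard error 0.32), which left 26.3% of the scrambled signal. It was -1.49 without MOTS-c replicate 3, -2.36 without MOTS-c replicate 2 and -1.47 with another background correction (normexp).

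The genes whose centred profile was nearest to that of Krt73 were Aqp6, an intracellular aquaporin, at a root mean square difference of 0.179, Adh1, an alcohol dehydrogenase, at 0.196 and Gm34880 at 0.233. Aqp6 had a log2 difference of -2.05 and Adh1 of -1.54. Nearest to Krt8 were Gml2 (0.016), Anxa2, a membrane-binding annexin (0.021), and Zyx, a focal adhesion protein (0.021), with log2 differences of -0.52, -0.50 and -0.56. Nearest to Krt18 were Gm38457 (0.021), Agap2 (0.021) and Tunar (0.022). With 4 arrays and 21813 probes compared, such likeness is a description of these arrays.

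Krt73 lies among the type II keratins of chromosome 15, so the whole cluster was examined in gene order, with the fall of Krt73 already known. It holds 26 keratin genes with Krt8 and Krt18 at its end, of which 19 passed the filter. Leaving out Krt7, Krt8, Krt18 and Krt73, 15 genes remained, 13 with a difference below 0 (47.1% of all tested probes) and 2 above, at a median log2 difference of -0.45. Of the 15, 6 were at least 1.5-fold lower (3.43% of all tested probes) and 5 were lower without overlap of the groups (18.6% of all). Without MOTS-c replicate 3 the median was -0.18 and 2 of the 15 were at least 1.5-fold lower, and without MOTS-c replicate 2 these values were -0.79 and 10. Without scrambled replicate 1 they were -0.76 and 10, without scrambled replicate 2 -0.31 and 4, and with normexp -0.29 and 3.

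**Figure D2:**
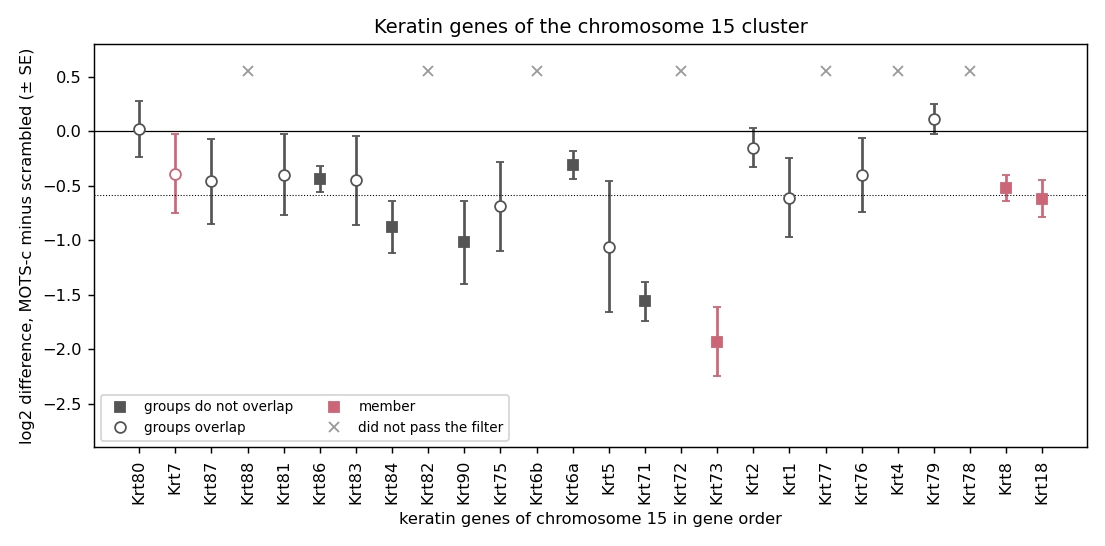
Log2 difference between MOTS-c and scrambled, with its standard error, for the keratin genes of chromosome 15 in gene order, through the brightest probe of each gene. Members are red, filled squares have groups without overlap, the dotted line marks 1.5-fold lower, and crosses stand for genes that did not pass the filter and carry no value. Krt71 at -1.56 and Krt73 at -1.93 are the lowest points, and Krt79 at 0.11 and Krt80 at 0.02 are above 0.

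Krt71, another inner root sheath keratin and separated from Krt73 by Krt72 alone, had a log2 signal of 8.97 and 8.76 on the scrambled arrays and of 7.47 and 7.13 on the MOTS-c arrays. Its log2 difference was -1.56 (standard error 0.18, limma adjusted p = 0.474), and it stayed between -1.72 and -1.40 when any array was left out. The probe of Krt72 was not well above background on any array. Krt71 and Krt73 are paralogs, and whether a probe also reads the RNA of a paralog was not tested.

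Further along the cluster, Krt90 had a log2 signal of 11.29 and 11.20 with the scrambled peptide and of 10.77 and 9.68 with MOTS-c, a log2 difference of -1.02 (standard error 0.38, limma adjusted p = 0.625) that was -0.48 without MOTS-c replicate 3. Krt84, a hair keratin, was at -0.88 (standard error 0.24, limma adjusted p = 0.539), -0.59 without MOTS-c replicate 3 and -0.27 with normexp. Krt5, the type II keratin of basal epidermal cells, had a log2 signal of 7.72 and 8.57 with the scrambled peptide and of 7.88 and 6.30 with MOTS-c. The groups of Krt5 overlapped, and its difference of -1.06 (standard error 0.60) became -0.27 without MOTS-c replicate 3. Krt1 and Krt75, keratins of the upper epidermis and of the hair follicle, were at -0.61 and -0.69, also with overlap, and at -0.11 and -0.18 without MOTS-c replicate 3. Krt14, the type I partner of Krt5, had 4.45 and 4.42 with the scrambled peptide and 4.72 and 4.21 with MOTS-c.

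Across the 60 intermediate filament genes beyond the 10, 59 had a probe and 32 passed the filter. By limma 0 of the 32 had an adjusted p under 0.05. At an unadjusted p under 0.05 with at least 1.5-fold, 4 were lower (Krt71, Krt84, Krt90 and Sync) and 1 was higher (Synm), where the same rule called 2.43% of all probes lower and 1.1% higher. The list was written knowing that Krt1 and Nefl are on the study's lists of changed probes, so it is not independent of these arrays. Type I keratins differed from type II in how many were measurable, with 7 of 26 passing the filter against 15 of the 22 type II genes with a probe, and their median log2 difference was 0.03 against -0.45. The difference between the types was not tested. Per array, the median centred signal of the type II genes was 0.08 and 0.44 with the scrambled peptide and 0.07 and -0.59 with MOTS-c, so that MOTS-c replicate 3 lay far below the other arrays, and MOTS-c replicate 2 beside scrambled replicate 1.

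Vim, the mesenchymal type III filament, had a log2 signal of 6.63 and 6.35 on the scrambled arrays and of 5.69 and 6.65 on the MOTS-c arrays (probe A_51_P392687). MOTS-c replicate 2 was the lowest and MOTS-c replicate 3 the highest of the 4 arrays, and the groups overlapped. The log2 difference of -0.32 (standard error 0.35) was -0.80 without MOTS-c replicate 3 and 0.15 without MOTS-c replicate 2. Its signal was 2.50 to 4.05 times the local background. The nearest profiles were those of Fgf1, a growth factor (0.027), Ipcef1 (0.041) and Wnt9b, a Wnt ligand (0.059).

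Des, the muscle and pericyte filament, was well above background on 0 arrays, at 1.09 and 1.38 times the local background with the scrambled peptide and 1.19 and 1.16 times with MOTS-c. Of 12 other mesenchymal markers, 7 were likewise not well above background on any array (Pdgfrb, Col1a1, Col3a1, Dcn, Lum, Cspg4 and Rgs5). The summed signal of the 5 that passed, mostly Acta2, was 5890 and 5520 with the scrambled peptide and 5200 and 5290 with MOTS-c. Their median log2 difference was -0.14, with Pdgfra, a receptor of fibroblasts, at -1.05 (standard error 0.33, limma adjusted p = 0.567), or -0.68 when MOTS-c replicate 3 was left out and -0.40 with normexp. Tagln, also of the mesenchymal list, went the other way at 0.54, with overlap of the groups. Of 8 endothelial markers, Cdh5, Kdr, Tek and Emcn were not well above background on any array. Among transcription factors and adhesion genes of epithelial to mesenchymal transition, Snai1 had a log2 signal of 3.70 and 4.26 with the scrambled peptide and of 4.89 and 5.11 with MOTS-c, a log2 difference of 1.02 (standard error 0.23, limma adjusted p = 0.509) that was 0.35 with normexp, and scrambled replicate 1 was not well above background. Snai2 was at 0.44 and Cdh2 at 0.23, and Zeb1 and Zeb2 were at 0.13 and 0.22 in their brightest probes and at -0.19 and -0.11 in their other probes. The median of this list was 0.23, or 0.12 without MOTS-c replicate 3 and 0.01 without scrambled replicate 2, while Twist1, Twist2 and Fn1 were not well above background on any array.

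Nes, the type IV filament of progenitor cells, had a log2 signal of 12.0 and 11.53 on the scrambled arrays and of 11.49 and 11.73 on the MOTS-c arrays (probe A_51_P452323), at 88.3 to 117 times its local background. The groups overlapped, and the scrambled arrays differed from each other by 0.48, more than the groups did. The log2 difference of -0.16 (standard error 0.21) ranged from -0.39 to 0.08 as single arrays were left out.

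Prph, the neuronal type III filament, was read by a pair of probes. The brighter (A_55_P1968895) gave 7.13 and 7.47 with the scrambled peptide and 7.16 and 6.34 with MOTS-c, and the other (A_51_P344606) gave 6.13 and 6.51 against 6.13 and 5.44. In both probes scrambled replicate 2 was highest and MOTS-c replicate 3 lowest, and the groups overlapped. The log2 differences were -0.55 (standard error 0.32) and -0.53 (standard error 0.28), and they were -0.14 and -0.18 without MOTS-c replicate 3. Shifting each array by its 75th percentile, in place of quantile normalization, separated the groups of both probes, with unchanged differences of -0.55 and -0.53.

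Ina, the neuronal type IV filament alpha-internexin, had a log2 signal of 11.53 and 11.47 on the scrambled arrays and of 11.63 and 11.14 on the MOTS-c arrays (probe A_55_P2017373), at 60.9 to 77.7 times its local background. One MOTS-c array was above and the other below both scrambled arrays. The log2 difference was -0.11 (standard error 0.20), and 0.13 without MOTS-c replicate 3.

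The neurofilament subunits, which assemble with alpha-internexin and peripherin in neurons, were well above background on all 4 arrays. Nefl, the light subunit, had a log2 signal of 12.74 and 12.83 with the scrambled peptide and of 13.09 and 13.13 with MOTS-c, a log2 difference of 0.32 (standard error 0.12, limma adjusted p = 0.634) without overlap. Nefm was at 0.10 and Nefh at -0.22 on the same scale. Synm, synemin, which copolymerizes with vimentin and desmin, had 4.67 and 4.09 with the scrambled peptide and 5.49 and 5.50 with MOTS-c, a log2 difference of 1.12 (standard error 0.22, limma adjusted p = 0.486). Scrambled replicate 2 was not well above background for Synm, and the difference was 0.42 with normexp. Sync, syncoilin, had 5.64 and 5.65 against 5.09 and 4.97, a log2 difference of -0.62 (standard error 0.12, limma adjusted p = 0.486), or -0.23 with normexp, and its other probe was at -0.45. Of the lamins, the filaments of the nuclear envelope, Lmna was at -0.06, Lmnb1 at -0.02 and Lmnb2 at 0.08.

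**Figure D3:**
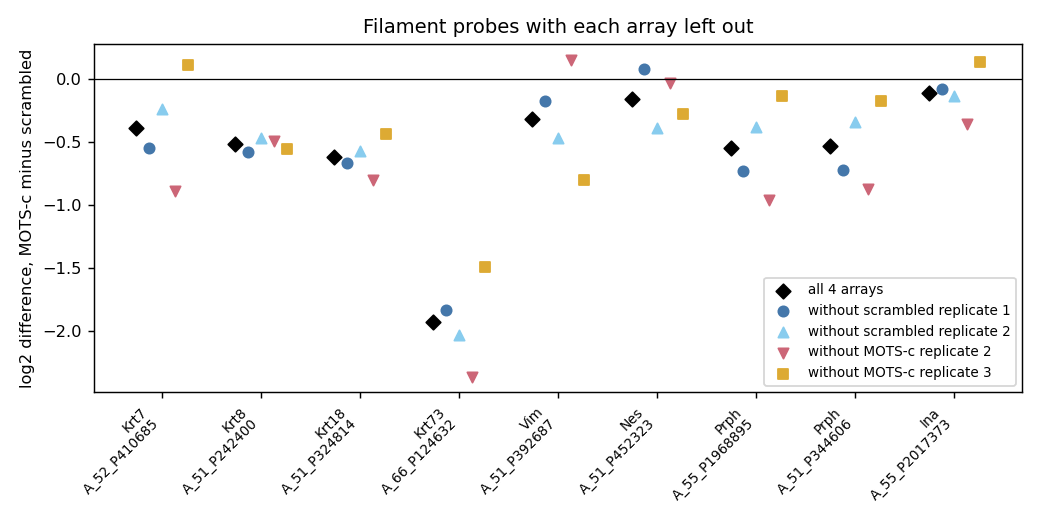
Log2 difference between MOTS-c and scrambled for the 9 filament probes with all 4 arrays and with each array left out in turn. Krt8, Krt18, Krt73 and both Prph probes stay below 0 throughout, while Krt7, Vim, Nes and Ina each cross 0 when 1 array is left out.

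Proteins that anchor intermediate filaments were also followed. Of 18 linker and desmosome genes 14 passed the filter, with a median log2 difference of 0.01, and 1 was at least 1.5-fold lower and 0 at least 1.5-fold higher, against 3.43% and 1.81% of all tested probes. Pkp1, plakophilin 1, a desmosomal plaque protein that binds keratins, had a log2 signal of 10.38 and 10.06 on the scrambled arrays and of 9.34 and 8.98 on the MOTS-c arrays. Its log2 difference was -1.06 (standard error 0.20, limma adjusted p = 0.474), and -0.89 without MOTS-c replicate 3. Evpl, envoplakin, was at -0.54, and Pkp2, plakophilin 2, went the other way at 0.37. Plec, the plectin that crosslinks filaments of most cell types, was at 0.14 in its brightest probe and -0.01 in the other, and Dsp, desmoplakin, was not well above background on any array.

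Other cell type markers that islet preparations can hold were measured as follows. The acinar list had a median log2 difference of -0.42 over its 5 of 12 measured genes and summed signals of 4930 and 5780 on the scrambled arrays and of 3720 and 2790 on the MOTS-c arrays, a sum made up mostly of Cela1 and Bhlha15. Its genes past 1.5-fold were Cela1, an elastase, at -0.76 (limma adjusted p = 0.499) and Bhlha15, an acinar transcription factor, at -0.76 (limma adjusted p = 0.655; -0.42 when MOTS-c replicate 3 was left out), while Ctrb1, a chymotrypsinogen, was at 0.33 and higher on both MOTS-c arrays, Cela2a was at -0.42 and Cel at -0.14, both with overlap. The probes of Prss2, Cpb1, Pnlip, Amy2b and Try4 were not well above background on any array. Without MOTS-c replicate 3 the acinar median was -0.06. The part of acinar RNA in the keratin differences was not tested. The neural and glial list had a median of -0.25, with Ngfr, the neurotrophin receptor, at -0.70 (limma adjusted p = 0.571; -0.41 when MOTS-c replicate 3 was left out). The beta cell list had a median of -0.05, with Slc2a2, the glucose transporter GLUT2, at -1.33 (limma adjusted p = 0.474, 1 MOTS-c array not well above background) and at -0.39 with normexp. Of the other beta cell genes, Mafa, Nkx6-1 and Iapp were higher on both MOTS-c arrays, at 0.16, 0.12 and 0.07. Pdx1, G6pc2 and Ins1 were lower on both, at -0.28, -0.19 and -0.04, while Ins2 (-0.05) and Slc30a8 (-0.12) overlapped. The other endocrine list had a median of 0.32, with Irx2, an alpha cell transcription factor, at 0.68 (limma adjusted p = 0.519), or 0.14 with normexp. In the same list Gcg (0.11) and Hhex (0.44) were higher on both MOTS-c arrays. Ppy (0.32), Sst (-0.28) and Ghrl (-0.02, and 0.28 in its other probe) had overlap of the groups in their brightest probes. The endothelial and immune medians were 0.01 and 0.01, with C1qa, a macrophage complement gene, at -0.67 (limma adjusted p = 0.548). Of the other immune genes, Cd74, well above background on only 2 arrays, was at 0.42 and higher on both MOTS-c arrays. Cd68 (0.16), Csf1r (-0.21) and Itgam (0.01, and -0.37 in its other probe) had overlap in their brightest probes.

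**Figure D4:**
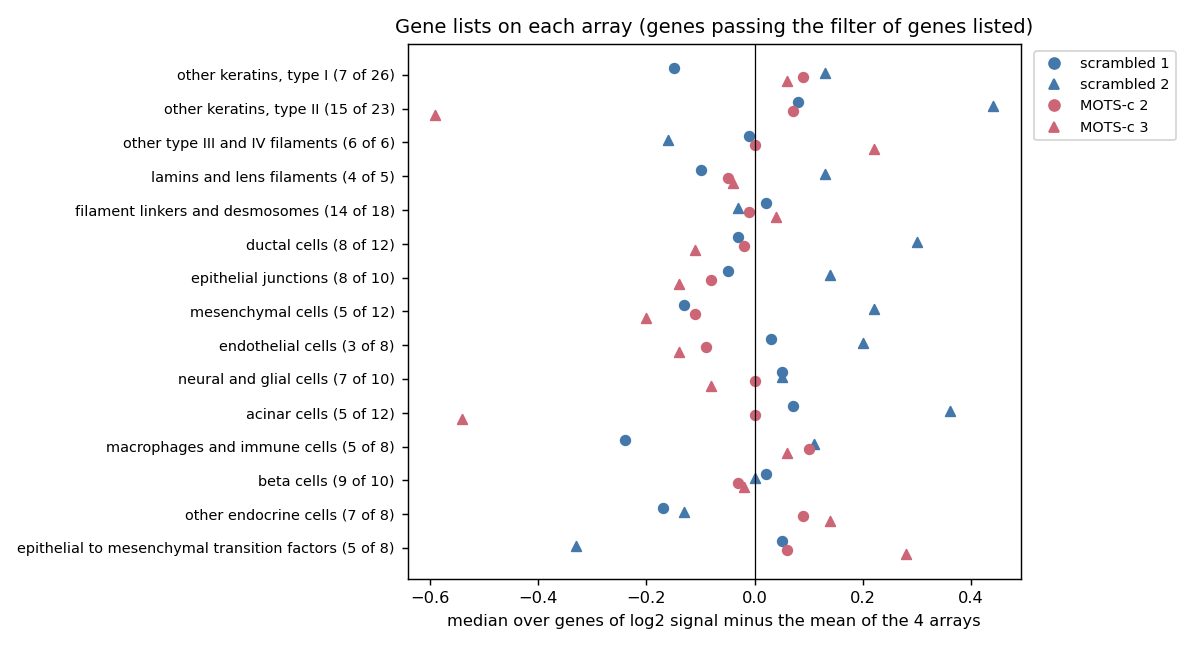
Median over the measured genes of each list of the log2 signal minus that gene's mean over the 4 arrays, for each array. The number of genes that passed the filter, of those listed, stands beside each name, and on the type II keratin and acinar lists MOTS-c replicate 3 sits at -0.59 and -0.54.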

How the data were processed

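RNA of 4 islet cell samples was hybridized to one-color Agilent arrays. The authors made Cy3-labeled cRNA and read spots with Feature Extraction. The deposited intensity of a spot has its background removed array by array, without normalization across arrays. A second deposited table holds the same values rounded. From these, 3671 control spots per array and outlier spots were left out, replicate spots were averaged as log2 signals, a probe needed signal well above background on 2 or more arrays (35087 remained), and arrays were quantile normalized, as the study's methods do. The methods' Flag A filter is not defined there. limma 3.58.1 in R 4.3.3 fitted MOTS-c against scrambled over all probes with Benjamini-Hochberg adjustment, with 2 residual degrees of freedom plus 2.64 from the other probes.

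Symbols came from a match of each probe's accession to the RefSeq gene table of GRCm38.p6, which named 32994 of 56605 probes, and probes with other accessions stay unnamed. A gene was followed through its brightest probe unless all are given. The members and gene lists were chosen with earlier results of these data known. Named beyond the members are list genes past 1.5-fold in the brightest probe, markers needed to say what a list holds, and the 3 nearest profiles of Krt8, Krt18, Krt73 and Vim. A gene under this rule is not reported here. Of the other genes given with a value, Krt14, Krt79, Krt80, the neurofilaments, the lamins, Cdh1, Epcam, Tagln, Snai2, Cdh2, Zeb1, Zeb2, Ctrb1, Cela2a, Cel, Evpl, Pkp2 and Plec were chosen after their values were seen. The same holds for the beta cell, other endocrine and immune markers under 1.5-fold. Alternatives were a 75th percentile shift, normexp (offset 50, on median signals), the rounded table, no filter, a strict filter on all 4 arrays, each array left out, a trend in limma, the methods' t-test and the mean over probes. All arrays lay on 1 slide with 1 scan time, so no slide block was run. The number of arrays limits the precision.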

Additional observations from a re-analysis of the deposited data

How the results depend on the processing

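The differences of the 9 filament probes moved by less than the spread between replicates in 82 of 83 recomputed values. The exception was Krt73 with normexp at -1.47, and no difference past 1.5-fold changed sign. With 2 arrays per group, leaving 1 out can hardly move a difference by more than that spread. The values with an array left out therefore say nothing about stability by this measure. Among them the differences of Krt7, Vim, Nes and Ina changed sign. The number of these probes past 1.5-fold was 2, but 1 with normexp and 1 to 5 as single arrays were left out (1 without scrambled replicate 2, 4 without scrambled replicate 1, 5 without MOTS-c replicate 2). Over all probes, 1239 met an unadjusted p under 0.05 with 1.5-fold, 406 with normexp, 457 by the methods' t-test and 1374 to 3264 with an array left out (3264 without MOTS-c replicate 2). After adjustment the count was 0 in limma under each alternative and 1 by the methods' t-test. Among the other filament genes, 5 met the unadjusted rule, 2 with normexp, 2 by the methods' t-test and 3 to 10 with an array left out (3 without MOTS-c replicate 3, 10 without MOTS-c replicate 2), and among linkers 1, or 1 to 3 (3 without MOTS-c replicate 2).

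List medians moved by more than the spread between replicates as follows. With no filter the neural and glial median was -0.08, the beta cell median -0.08 and the other endocrine median 0.36. Normexp gave -0.03 for beta cells and 0.07 for other endocrine cells, the 75th percentile shift -0.11 for beta cells, the strict filter 0.00 for epithelial junctions, and the mean over all probes -0.18 for the neural and glial list. With an array left out, medians ran from -0.38 to 0.03 for the ductal list, -0.35 to -0.00 for the mesenchymal list, -0.19 to 0.06 for the endothelial list, -0.17 to -0.09 for the neural and glial list, -0.79 to -0.06 for the acinar list, -0.06 to -0.02 for the beta cell list, 0.12 to 0.44 for the other endocrine list and 0.01 to 0.46 for the epithelial to mesenchymal transition list.

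No paired analysis was run, because the labels do not say whether arrays of the groups share an animal. Probes near background, Krt7 and Vim among them, are limited by signal over background, and normexp shrinks such differences by its offset.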
